A study of Vitis vinifera with 6 samples.

Results

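The 9 loci described here form the small stilbene synthase cluster of grapevine chromosome 10, which lies apart from the large stilbene synthase cluster of chromosome 16. They were taken by their locus identifiers, VIT_10s0042g00840 to VIT_10s0042g00930 without VIT_10s0042g00900, and make up 9 of the 34369 features on the array. Each locus had 1 probe. Only VIT_10s0042g00840 (STS1) and VIT_10s0042g00910 (STS4) carry a name in the annotation used here, so the identity of the other 7 as stilbene synthases rests on the locus list and was not checked by sequence.

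Stilbene synthases are plant type III polyketide synthases that join p-coumaroyl-CoA with malonyl-CoA to give resveratrol, the parent of the grapevine stilbenoids. They are close relatives of chalcone synthase, which uses the same substrates to open the flavonoid branch. In grapevine they are known as a large family of closely similar copies whose transcripts build up after pathogen attack, UV light, wounding and other stresses, and their products act as phytoalexins.

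RNA came from leaves of in vitro plantlets of Vitis vinifera cv. Thompson Seedless, 6 weeks old per the labels, taken 7 d after vacuum infiltration with Agrobacterium tumefaciens strain C58C1. The OX.NAC61 plants received the transcription factor gene NAC61 behind the constitutive 35S promoter in the pK7WG2.0 vector, and the control plants received the same vector with a non-coding sequence, so both groups had been through the bacterial infiltration. Each group had 3 arrays, and the methods describe these as separate plants, 1 plant an array. Those hybridised for OX.NAC61 were the strongest overexpressors of NAC61 among the plants infiltrated, and expression was transient, so the cells of a leaf need not all have carried the construct.

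On each array between 24501 and 28121 of the 34369 features were well above background. The leaf origin was checked by detection of PSAD, PSAO, PSAK and LHCB4, which encode photosystem proteins, and of rubisco activase, and all 5 were well above background on all 6 arrays. Their levels were not alike in the groups. By the threshold given below all 5 were called lower in OX.NAC61 (log2 -0.74 to -1.64), against 3.72% of all features. NAC61 (VIT_08s0007g07640), the introduced gene, lay on the log2 scale 1.23, 1.72 and 1.90 above the control mean on OX.NAC61 replicates 1, 2 and 3. All controls and OX.NAC61 replicate 1 were scanned on the first day and OX.NAC61 replicates 2 and 3 on the second, so within the second day there is no control to compare with.

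The question put to the cluster was whether its transcripts differed between leaves overexpressing NAC61 and control leaves. All 9 loci had a higher mean in OX.NAC61, against 43.7% of all features tested, and 7 of the 9 were higher by more than 1 on the log2 scale, against 4.44%. Over the 8 loci well above background on every array the fitted log2 differences ran from 0.15 to 1.41. The median was 1.28 over these 8 and 1.30 over the 9, where the median over all features tested was -0.05. However, none of the 9 passed the threshold of the study's methods (limma adjusted p below 0.1 and a fold above 1.5), while 6.81% of the 27052 features tested were called and 3.09% were called higher. Limma adjusted p ran from 0.113 to 0.844 over the 9 loci. At an unadjusted p below 0.05, 6 of the 9 were higher, against 7.71% of all features. The control and OX.NAC61 arrays did not overlap at 4 of the 9 loci, with OX.NAC61 above, against 9.9% of all features. VIT_10s0042g00850, which was not well above background on any control array, passed the filter only through OX.NAC61 and so had to differ. Without it the counts were 8 of 8 higher, 6 of 8 by more than 1, 5 of 8 at an unadjusted p below 0.05 and 3 of 8 not overlapping. All loci were measured on the same arrays, and 7 of them correlated with each other at 0.906 to 0.998. The counts are therefore not of independent results. In leaf RNA, more expressing cells and more RNA per cell cannot be told apart.

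All 9 loci passed the filter on dim features, which asked for a signal well above background on at least 3 arrays. Of these, 8 were well above background on all 6 arrays, and no spot of any of the 9 was saturated or marked as an outlier. Levels below are log2 processed signals minus the 75th percentile of their own array, so that 0 is the 75th percentile. They compare arrays for 1 probe and not probes with each other.

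The groups were apart at both named genes. STS1 measured 0.89, 0.20 and 1.15 on control replicates 1, 2 and 3 and 2.86, 1.22 and 2.39 on OX.NAC61 replicates 1, 2 and 3. The lowest OX.NAC61 array, replicate 2, was above the highest control, replicate 3, by 0.07. The means were 0.75 ± 0.49 and 2.16 ± 0.84 (SD, n = 3), a 2.66-fold difference (95% confidence interval 1.23 to 5.77, limma adjusted p 0.162).

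STS4 measured 2.72, 1.98 and 2.72 on the controls, in replicate order, and 4.32, 2.98 and 3.91 on OX.NAC61. Here too OX.NAC61 replicate 2 was the lowest of its group, 0.26 above the highest control. The difference was 2.41-fold (1.26 to 4.61, limma adjusted p 0.145), with means of 2.47 ± 0.43 and 3.74 ± 0.69 (SD, n = 3).

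The neighbouring locus VIT_10s0042g00920 gave 2.39, 1.42 and 2.12 on the controls and 3.98, 2.46 and 3.38 on OX.NAC61. Its groups were apart by 0.08, between OX.NAC61 replicate 2 and control replicate 1. The difference was 2.46-fold (1.19 to 5.07, limma adjusted p 0.168).

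At the next 3 loci OX.NAC61 replicate 2 fell among the controls and replicates 1 and 3 lay above them. VIT_10s0042g00860 measured 1.21, -0.0015 and 0.77 on the controls against 2.89, 0.98 and 2.00 on OX.NAC61, a 2.46-fold difference (1.01 to 5.97, limma adjusted p 0.240). VIT_10s0042g00890 measured 0.71, -0.61 and 0.02 against 2.28, 0.43 and 1.43, a 2.53-fold difference (1.04 to 6.15, limma adjusted p 0.226). At both loci replicate 2 was above control replicates 2 and 3 and below control replicate 1.

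VIT_10s0042g00930, at the far end of the cluster, measured 1.33, 0.20 and 0.91 against 2.95, 0.995 and 1.99. The array order was the same, and the confidence interval of its 2.24-fold difference reached below no change (0.924 to 5.45, limma adjusted p 0.284).

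The spread was widest at VIT_10s0042g00870, with -1.90, -2.90 and -2.08 on the controls and -0.04, -2.58 and -1.36 on OX.NAC61. Its OX.NAC61 arrays covered 2.54 on the log2 scale, against 0.99 for the controls, and replicate 2 was below control replicates 1 and 3. The difference was 1.96-fold (0.672 to 5.70, limma adjusted p 0.455).

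The remaining loci were dim. VIT_10s0042g00850 was not well above background on any control array and was well above it on all 3 OX.NAC61 arrays, with processed signals of 11.9, 3.24 and 3.72 on the controls and 35.3, 31.8 and 21.3 on OX.NAC61. The control level is therefore only a bound. A floor was set for each control array at the lowest signal that any feature well above background had there. The spot's own signal was used where it was higher. Against these values OX.NAC61 was 1.34-fold higher. The floor comes from other probes and need not be the limit of this one, so 1.34 is not a strict minimum. The fit gave a limma adjusted p of 0.113, which the filter had in part fixed, since it kept the locus through the OX.NAC61 arrays alone. Its measured log2 difference depended on how dim signals were treated, at 1.67 with the processed signal and 0.25 after normexp with an offset of 50.

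VIT_10s0042g00880 was well above background on all arrays, and its groups overlapped over the whole control range. It measured -5.17, -4.74 and -4.85 on the controls and -4.08, -5.37 and -4.85 on OX.NAC61, so that replicate 1 was the highest of all arrays and replicate 2 the lowest of all. The difference was 1.11-fold (0.635 to 1.95, limma adjusted p 0.844).

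**Figure D1:**
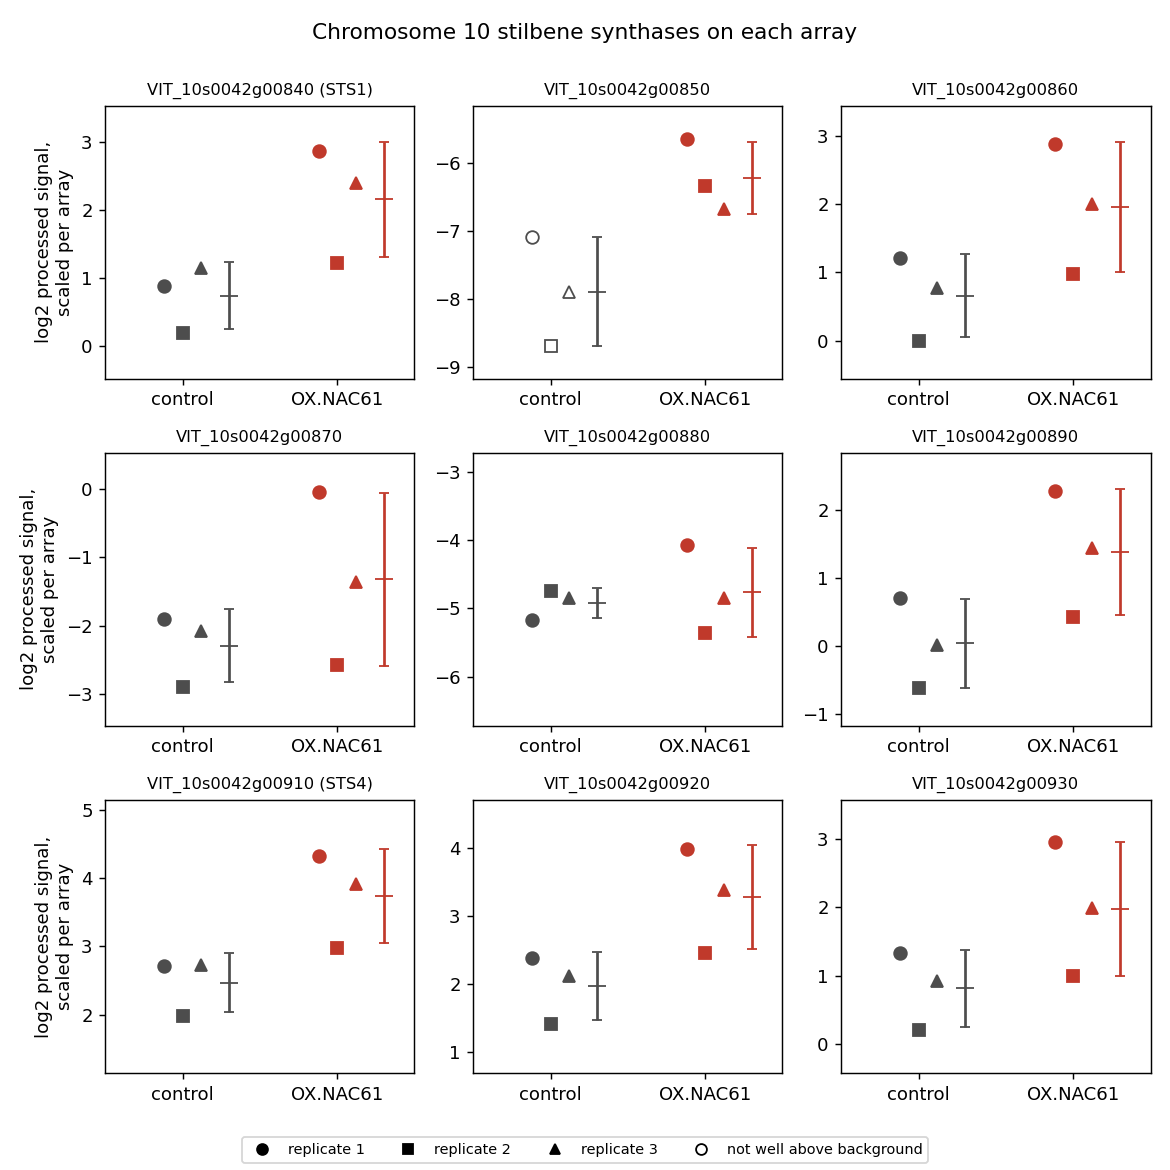
Log2 processed signal, scaled by the 75th percentile of each array, of the 9 chromosome 10 stilbene synthase loci on the 3 control (grey) and 3 OX.NAC61 (red) arrays, with marker shape giving the replicate, open markers signals not well above background, and bars the mean ± SD (n = 3). Each panel spans the same range of 4 log2 units, and at every locus except VIT_10s0042g00850 the OX.NAC61 order is replicate 1 above 3 above 2.

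The spread within OX.NAC61 was thus shared by the cluster. At all 8 loci well above background on all arrays, OX.NAC61 replicate 1 was the highest and replicate 2 the lowest of the group. The same order was found at 22.1% of all such features. It was not particular to chromosome 10, as 31 of 37 such features of the chromosome 16 stilbene synthase interval (83.8%) had it. Averaged over the 8 loci, OX.NAC61 replicates 1, 2 and 3 lay 1.96, 0.21 and 1.18 above the control mean, on the log2 scale. Replicate 1 was above every control at 9 of the 9 loci, replicate 3 at 8 and replicate 2 at 4. Each of these counts includes VIT_10s0042g00850, which passed the filter only through OX.NAC61 and so had to differ. In the chromosome 16 interval, replicates 1, 3 and 2 were above every control at 97.4%, 97.4% and 65.8% of 38 features. Over all features the shares above every control were 26.7% for replicate 1, 27.7% for replicate 3 and 28.8% for replicate 2, so by this measure replicate 2 did not stand below the other two arrays of its group.

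Arrays of the same scan day differed as well. Replicates 2 and 3 were both scanned on the second day, and at the 8 loci replicate 3 was higher than replicate 2 by 0.51 to 1.22 on the log2 scale. Within the first day, OX.NAC61 replicate 1 was above the mean of the controls by 0.85 to 2.25 over the 9 loci. Among the 9, VIT_10s0042g00850 had passed the filter only through OX.NAC61. With scan day as a block the fit returns these same differences, none of which was called (limma adjusted p 0.289 to 0.395), and in that fit 0.037% of all features were called higher. At an unadjusted p below 0.05 all 9 were higher in it, against 5.5% of all features, but here OX.NAC61 replicate 1, the highest array at these loci, stands alone against the controls, and its spread is assumed to be like that of the other arrays.

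The controls also shared an order. Control replicate 2 was the lowest control at 7 of the 8 loci, on average 0.49 below the control mean, with replicate 1 at 0.33 and replicate 3 at 0.16 above it. Compared with all features tested, the SD of the OX.NAC61 arrays lay between the 81st and the 98th percentile over the 9 loci, and that of the controls between the 53rd and the 95th.

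Leaving out an array moved individual calls. Without OX.NAC61 replicate 2, STS1 (1.88, limma adjusted p 0.0908) and STS4 (1.64, 0.0946) were called, the median of the 9 was 1.70, and 1.87% of all features were called higher. Without control replicate 1 the only locus called was VIT_10s0042g00850 (limma adjusted p 0.0883, with 2.18% of all features called higher), whose control level is only a bound and which had passed the filter through OX.NAC61 alone. Without OX.NAC61 replicate 1 the median was 0.89 and VIT_10s0042g00880 changed sign (-0.19), and without control replicate 2 the median was 1.02.

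**Figure D2:**
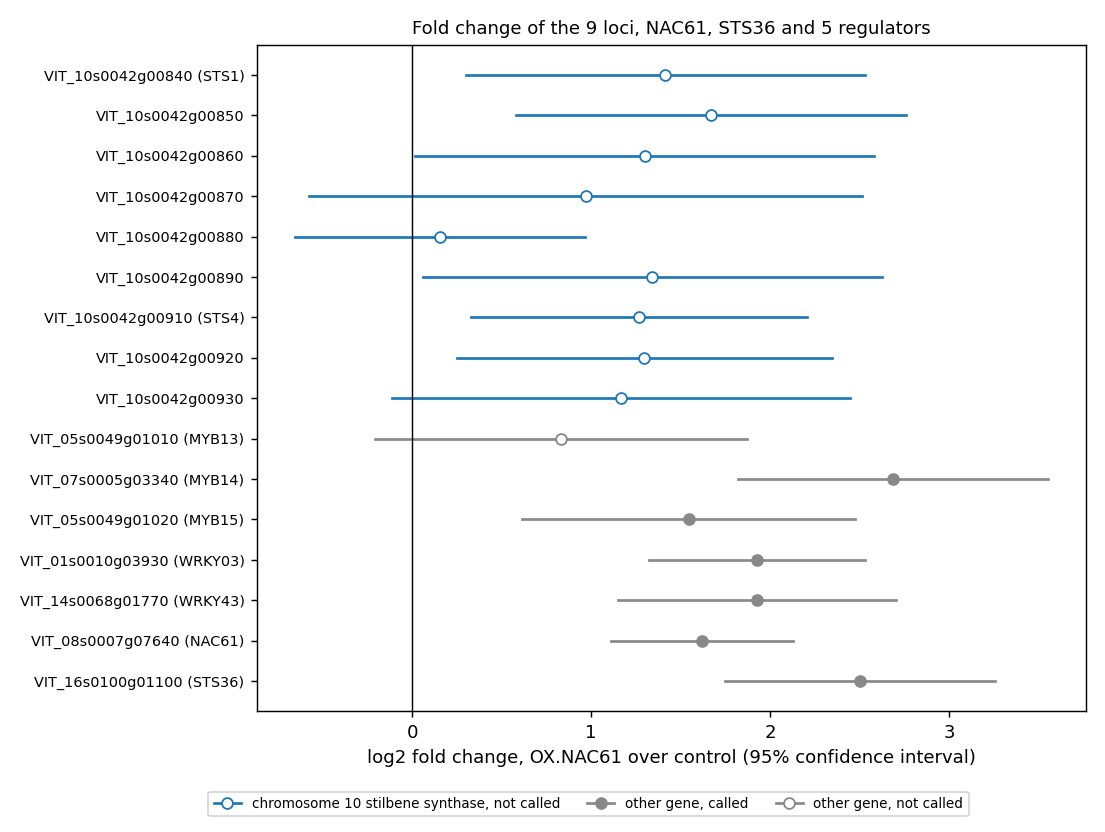
Log2 fold change of OX.NAC61 over control with its 95% confidence interval from limma for the 9 chromosome 10 stilbene synthase loci (blue) and for NAC61, STS36 and 5 regulators (grey), where filled points passed the threshold. None of the 9 loci is filled, and the intervals of VIT_10s0042g00870, VIT_10s0042g00880 and VIT_10s0042g00930 include 0.

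Members of the cluster moved together from array to array. Pearson correlations over the 6 arrays, which share their scaling and the difference between groups, ran from 0.906 to 0.998 among 7 of the loci (21 pairs, median 0.975). VIT_10s0042g00880 was the exception, with 0.527 to 0.746 against the same 7. The dim VIT_10s0042g00850 had 0.841 with the mean of the 8 others, although its control values lie below the limit of reliable signal.

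The features most like the mean profile of the 8 loci were then sought among 23998 other features well above background on all 6 arrays. Of the 10 with the highest Pearson correlation over the 6 arrays, 6 lay in the chromosome 16 stilbene synthase interval: VIT_16s0100g00940 (0.996), VIT_16s0100g00800, VIT_16s0100g00840, VIT_16s0100g00920, VIT_16s0100g00900 and VIT_16s0100g01000. The other 4 were VIT_18s0001g09820 (0.996), VIT_19s0135g00010, VIT_15s0046g02170 and VIT_13s0067g00740, and the lowest of the 10 correlations was 0.990. A correlation of at least 0.95 was found at 119 features, or 0.496% of those searched, and at 23 of the 37 features of the chromosome 16 interval. Stilbene synthase copies are much alike and probe sequences were not used here, so a signal shared between copies was not tested.

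The chromosome 16 interval held 39 features between the first and the last stilbene synthase of the annotation used here, of which 38 were tested. Its median log2 fold change of 1.26 was close to the 1.30 of chromosome 10, but 10 of its 38 features were called higher and none of the 9. STS36 (VIT_16s0100g01100), the stilbene synthase named in the study's text, was 5.66-fold higher (3.35 to 9.54, limma adjusted p 0.0284). STS36 was not called without control replicate 2 or 3 (limma adjusted p 0.113 and 0.103). Its log2 fold change was 2.26 and 2.49 there, against 2.50 with all arrays. The chromosome 16 count changed with single arrays, as did the share of all features called higher, 3.09% with all arrays. The count was 23 without OX.NAC61 replicate 2 (1.87%) and 1 without OX.NAC61 replicate 3 (0.861%). Without control replicate 1 it was 4 (2.18%), and without control replicate 2 (0.237%) or 3 (0.61%) it was 0. With scan day as a block it was 0 as well and STS36 was not called (limma adjusted p 0.236), and with an intensity trend it was 17. On OX.NAC61 replicates 1, 2 and 3 the interval lay 1.90, 0.55 and 1.55 above its control mean. Relative to chromosome 16, the chromosome 10 loci were therefore higher by 0.06 on replicate 1 and lower by 0.34 and 0.38 on replicates 2 and 3, while the controls ranged from -0.08 to 0.11. Whether the clusters differ in their response was not tested.

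**Figure D3:**
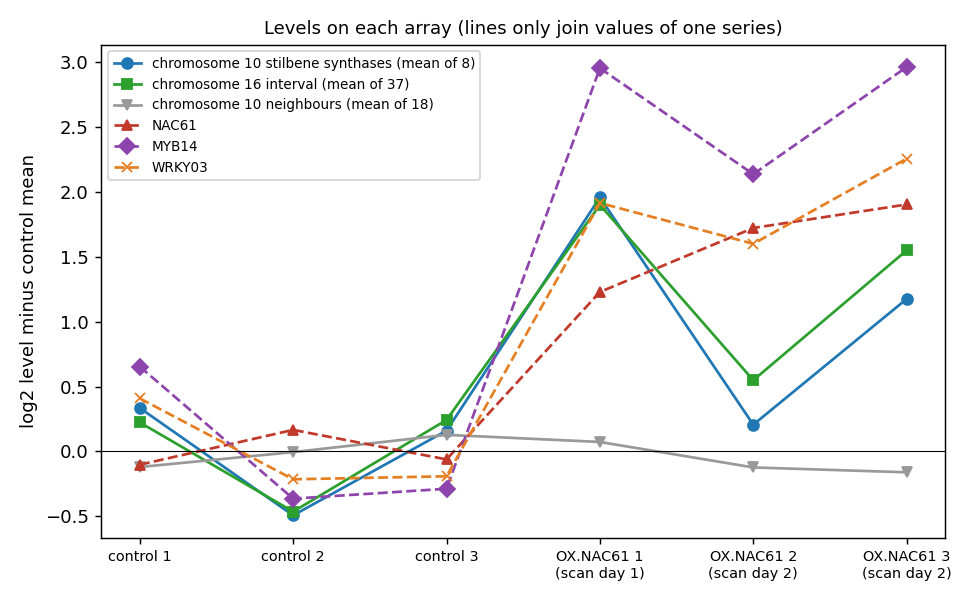
Log2 level on each array minus the control mean, as the mean of the 8 chromosome 10 stilbene synthases, the 37 features of the chromosome 16 interval and the 18 chromosome 10 neighbours that were well above background on all 6 arrays, and as single values for NAC61, MYB14 and WRKY03. Both stilbene synthase groups dip on OX.NAC61 replicate 2 (0.21 and 0.55), where NAC61 stands at 1.72.

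The neighbouring loci of chromosome 10 gave a local comparison. Of 32 features within the flanking locus numbers, 21 were tested, with a median log2 fold change of -0.01. Limma called 1 of them higher and 2 lower, against 3.09% and 3.72% of all features, and 2 of these 3 were well above background on only 3 arrays. The nearest tested loci were VIT_10s0042g00800 below the cluster (-0.06, limma adjusted p 0.870) and VIT_10s0042g00940 above it (0.86, limma adjusted p 0.644). VIT_10s0042g00900, which lies inside the cluster by number but is not among the 9, had no signal well above background on the 6 arrays.

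**Figure D4:**
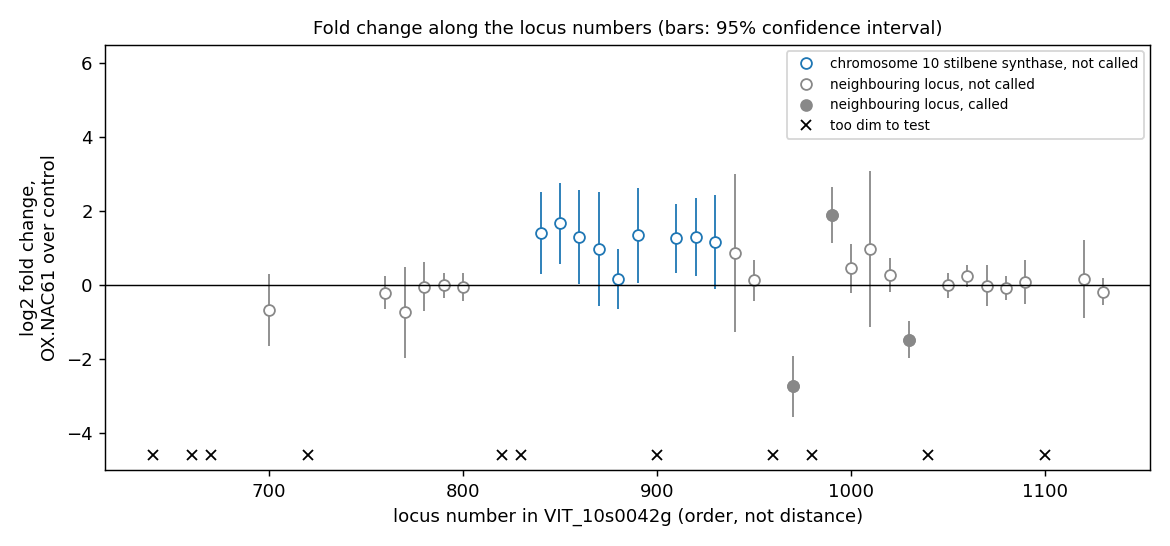
Log2 fold change of OX.NAC61 over control against the number of each locus, with 95% confidence intervals, for the 9 chromosome 10 stilbene synthases (blue) and their neighbours (grey), where filled points passed the threshold and crosses mark features too dim to test. The 9 loci lie between 0.15 and 1.67, the highest of them being VIT_10s0042g00850, whose control level is only a bound, and the tested neighbours have a median of -0.01.

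Most listed regulators of the stilbene synthase genes were called higher, 4 of 5 against the 3.09% given above. Of the 5, the R2R3-MYB factors MYB14 (6.43-fold, limma adjusted p 0.0294) and MYB15 (2.92-fold, 0.0946) and the WRKY factors WRKY03 (3.80-fold, 0.0286) and WRKY43 (3.80-fold, 0.0418) were called higher, and MYB13 was not (1.78-fold, limma adjusted p 0.343). MYB14 lay 2.96, 2.14 and 2.96 above its control mean on OX.NAC61 replicates 1, 2 and 3, and WRKY03 was highest on replicate 3 (2.26). Replicate 2 was the lowest of its group for both, but it stood clear of every control, unlike at 5 of the 9 loci. None of the 5 was called without control replicate 2 (limma adjusted p from 0.125 for WRKY43), where 0.237% of all features were called higher. The same held without control replicate 3 (0.61% of all features) and with scan day as a block (0.037%). Without control replicate 2 the log2 fold changes ran from 0.51 (MYB13) to 2.50 (MYB14), against 0.83 and 2.69 with all arrays. MYB15 lost its call in 12 of 18 alternatives. The array highest in the chromosome 10 cluster, replicate 1, was the lowest of the group in NAC61 (1.23). This order rests on a single NAC61 probe and on arrays of different scan days. Whether that probe reads the introduced NAC61, the plant's own or both was not checked, and its relation to the cluster was not tested. The study named these regulators from the same arrays in part, so their count is not independent evidence.

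The enzymes that feed the cluster were read in pathway order. Of the 3 phenylalanine ammonia-lyases listed, which make cinnamate, only VIT_16s0039g01170 was called higher (3.07-fold, limma adjusted p 0.0959, lost in 10 of 18 alternatives). Log2 fold changes of the 3 ran from 0.17 to 1.62, with 2 at an unadjusted p below 0.05. The study had listed 2 of the 3 as called on these arrays. It also reported further phenylalanine ammonia-lyases as higher, which this list does not hold. None of the 3 cinnamate 4-hydroxylases was called, with log2 fold changes from -0.03 to 1.63 and 2 at an unadjusted p below 0.05. None of the 10 4-coumarate-CoA ligases, which make p-coumaroyl-CoA, was called (-0.29 to 0.89, with 1 at an unadjusted p below 0.05). The 2 chalcone synthases, which draw on the same substrate, were not called either, at 0.52 and 0.65 with 0 at an unadjusted p below 0.05. Over all features 3.09% were called higher, and 7.71% were higher at an unadjusted limma p below 0.05.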

How the data were processed

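Leaf RNA was hybridised to 1-colour Agilent arrays. The spot intensities deposited by the authors are the output of Agilent Feature Extraction 10.5.1.1 without scaling between arrays. A second deposited file of log2 values held 8 of the 9 loci and served as an alternative. From each log2 processed signal the 75th percentile of its array was subtracted, after control spots had been left out and outlier spots set to missing. Those features whose signal was well above background on 3 or more arrays were fitted with limma 3.58.1 in R 4.3.3, without covariates, and p-values (two-sided) were adjusted by Benjamini-Hochberg over all 27052 features. The number of arrays limits the precision.

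The 9 loci and all gene lists were chosen with earlier results of these data known. Named in the text are the 9 loci, NAC61, STS36, the listed regulators, called pathway genes and the 10 features most correlated with the mean profile of the cluster. The nearest tested neighbours and VIT_10s0042g00900 were added after their values were seen. Locus identifiers are those of the array, and could not be matched to the reference table. Alternatives changed the normalisation, background correction, filter, threshold, variance model or block (scan day, recorded slide, replicate), or left out each array in turn. The replicate numbers of the 2 groups were not taken as pairs.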

Additional observations from a re-analysis of the deposited data

How the results depend on the processing

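The 9 loci were refitted under 12 alternatives and without each of the 6 arrays in turn. The count of called loci was 0 under quantile normalisation, the deposited processed values, normexp with quantile normalisation, both other filters, the scan day and slide blocks, robust variance and both stricter thresholds. It was 1 with an intensity trend (STS4, 1.27, limma adjusted p 0.0926, with 3.61% of all features called higher) and ran from 0 to 2 when an array was left out. The median log2 fold change was 2.14 with scan day as a block, a fit that rests on OX.NAC61 replicate 1 alone, and ran from 0.89 to 1.70 when an array was left out. VIT_10s0042g00880 was -0.046 with the recorded slide as a block and ran from -0.19 to 0.46 without single arrays, and none of the other 8 loci changed sign. The ranges without single arrays were 1.06 to 1.88 for STS1, 0.98 to 1.64 for STS4 and 1.27 to 2.07 for VIT_10s0042g00850. The last was 0.25 after normexp with an offset of 50, which compresses dim signals, and is not in the deposited table of processed values. The chromosome 16 count of 10 ran from 0 to 23 without single arrays, where 0.237% to 3.9% of all features were called higher.

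With the replicate number as a block, 6 of the 9 loci and 23 of the 38 chromosome 16 features were called, with 2.35% of all features called higher. The loci called were STS1 (1.41, limma adjusted p 0.0901), VIT_10s0042g00850 (1.67), VIT_10s0042g00860 (1.30), VIT_10s0042g00890 (1.34), STS4 (1.27) and VIT_10s0042g00920 (1.30). Of these, VIT_10s0042g00850 had passed the filter through OX.NAC61 alone. Arrays of the same number are not known to share a plant or batch. Their deviations from the group means correlated at 0.21, -0.04 and 0.21 for numbers 1, 2 and 3, and not every array correlated best with its own number. The cause of these shifts was not tested. Weak signals limit VIT_10s0042g00850 and VIT_10s0042g00880.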
